A study of Mus musculus with 41 samples.

Results

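The binding sites of Runx2 in rib chondrocytes were set against those in calvarial osteoblasts. The comparison took every peak of the deposited Runx2 list of each cell type, 15390 in chondrocytes and 10241 in osteoblasts. These 25631 peaks are part of the 155773 peaks in the 8 chromatin immunoprecipitation (ChIP-seq) peak lists of the series, which comprised 41 samples. A peak was called shared where it had at least 1 bp in common with a peak of the other cell type, and private otherwise. The question addressed was how the Runx2 sites of one skeletal cell type relate to those of the other, beyond the plain count of overlaps.

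Chondrocytes came from the ribs and osteoblasts from the calvaria (frontal bone and the front part of the parietal bone) of C57BL/6 mice at postnatal day 1. Cells were released from ribs with pronase and collagenase D, and from calvaria with collagenase D and dispase. The mice of both groups carried the Runx2-BioFL/+ knock-in, so that 1 allele of Runx2 was tagged, and the protein was precipitated through the FLAG part of the tag. Each group had 2 ChIP libraries and 1 peak list. The labels name no sort of the cells, and every chondrocyte library came from rib and every osteoblast library from calvaria. Cell type and skeletal site therefore cannot be told apart. Peak lists hold no expression values, so the labelled cell types could not be checked against RNA markers.

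With 1 list in each group there was no replicate error and no test over samples. All values below are descriptions of these lists. Intervals are 95% Wilson intervals for shares and order-statistic intervals for medians. They describe the counting error alone, since peaks near each other may depend on each other. The lists give positions without height or score, and the depth of the libraries is unknown. A longer list offers more partners to the other list, so distances, clustering and one-cell-type domains are also given with the chondrocyte list cut to 10241 peaks.

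Runx2 is a Runt-domain transcription factor that binds DNA together with its partner Cbfb. It is required for the formation of osteoblasts, and in cartilage it drives the late, hypertrophic step of chondrocyte maturation. A further 4 lists of the series served as readouts outside the classes: Foxa2, a forkhead factor that takes part in chondrocyte hypertrophy, precipitated from rib chondrocytes; Jun, which forms AP-1 dimers with Fos proteins, precipitated from calvarial osteoblasts; tagged Runx2 expressed in 3T3 fibroblasts after 3 days in osteogenic medium; and the FLAG precipitation of 3T3 cells with green fluorescent protein (GFP) at day 0, which is a background list because those cells lack tagged Runx2. Foxa2 and Jun were each precipitated from only 1 of the primary cell types. Each of these 4 lists came from 1 ChIP library, without a replicate.

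Overlapping peaks of the 2 cell types had close centres. The criterion fixes this in part, since narrow peaks share a base only where their centres are near. The overlaps formed 4643 pairs of a chondrocyte and an osteoblast peak, of which 4538 were one-to-one. A total of 35 chondrocyte peaks and 18 osteoblast peaks had 2 partners, and no peak had more. The centres of paired peaks lay a median of 35.5 bp apart (interquartile range 15 to 74.5 bp), with 61.6% of pairs within 50 bp and 83.8% within 100 bp. The median pair covered 97.7% of its shorter member. Partial contacts were few, since 378 pairs (8.14%) covered under 50% of the shorter peak.

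Within pairs the chondrocyte peak was usually the narrower one. It was narrower than its osteoblast partner in 3237 of 4643 pairs (69.7%), with a median width ratio of 0.762, chondrocyte over osteoblast. The chondrocyte peak lay wholly inside the osteoblast peak in 1663 pairs (35.8%), and the osteoblast peak inside the chondrocyte peak in 508 (10.9%). Over the whole lists the median width was 136 bp in chondrocytes (135 to 137 bp) and 186 bp in osteoblasts (184 to 188 bp). The narrowest peaks had 4 bp in chondrocytes and 6 bp in osteoblasts, and widths stopped at about 500 bp, with 1 wider peak in each list. The widest chondrocyte peak, at chr15:50078278-50079159 (882 bp, private), lay 1.34 Mb from the nearest osteoblast peak. The widest osteoblast peak, at chr8:114167512-114168027 (516 bp, private), lay 201 bp from a chondrocyte peak. All coordinates are 1-based in build mm9.

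Private peaks were slightly wider than shared ones in both lists. In chondrocytes the median was 138 bp for private peaks (137 to 140 bp) and 130 bp for shared peaks (129 to 131 bp). In osteoblasts it was 192.5 bp for private peaks (189 to 195 bp) and 179 bp for shared peaks (177 to 182 bp). Overlap as a criterion favours wide peaks. By width quartile, narrowest first, 32.6%, 33.7%, 27.9% and 25.6% of chondrocyte peaks were shared, and 49.9%, 47.0%, 41.7% and 42.0% of osteoblast peaks, against 29.9% and 45.2% over the whole lists.

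The order of lines in the files carried information. Neither file was sorted by position: the first 1000 lines of each touched 20 chromosomes, and only 7.40% of neighbouring lines in the chondrocyte file and 9.22% in the osteoblast file were on 1 chromosome. The sources used here do not say what the order is. The share of shared peaks declined in every step between deciles of the chondrocyte file (10 equal parts in line order), passing through 52.5% in the second and 27.7% in the fifth. In osteoblasts it declined to 34.7% in the seventh decile, was no lower in the eighth (369 of 1024) and ended at 34.2% and 30.3% in the last 2. Paired peaks kept part of their order between files: over the 4643 pairs the positions had a Spearman's rho of 0.388 and a Pearson's r of 0.368, given as a description. Of the 1057 pairs with their chondrocyte peak in the first decile, 380 had the osteoblast peak in the first decile and 40 in the last. None of the 114 pairs with their chondrocyte peak in the last decile had an osteoblast peak in the first decile. Width moved with the order too, with a median of 124 bp in the first and 155 bp in the last chondrocyte decile, and 174 bp and 196 bp in osteoblasts.

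The first 3 lines of both files held the same sites, and many early lines were in the background list. All of the first 50 peaks of each list were shared, with a partner anywhere in the other file. The GFP day 0 list overlapped 27 of these 50 in chondrocytes (54%, 40.4 to 67.0%) and 42 of 50 in osteoblasts (84%, 71.5 to 91.7%), against 2.86% and 4.55% of the whole lists. Among the first 10 lines it overlapped 10 chondrocyte peaks and 9 osteoblast peaks. The site at chr15:72399102-72399198 headed the chondrocyte file and was line 2 of the osteoblast file (chr15:72399086-72399206). It overlapped all of the other 6 lists. Line 2 of the chondrocyte file, chr9:21754919-21755015, headed the osteoblast file (chr9:21754915-21755016) and overlapped every other list except Foxa2. Line 3 was the same site in both files, chr19:4989134-4989224 in chondrocytes and chr19:4989126-4989228 in osteoblasts, and overlapped Jun, GFP day 0 and the list named for GFP day 3. Without the peaks in the GFP day 0 list the fall in sharing over the file was nearly as large: the first decile exceeded the last by 58.6 percentage points in chondrocytes and 40.3 in osteoblasts, against 61.1 and 41.2 with them.

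Private peaks early in the file carried the other factor precipitated from the same cell type more often than those late in it. Foxa2 overlapped 248 of 485 chondrocyte-only peaks in the first decile (51.1%, 46.7 to 55.6%) and 231 of 1425 in the last (16.2%), against 18.3% of the whole chondrocyte list. Jun overlapped 138 of 292 osteoblast-only peaks in the first decile (47.3%, 41.6 to 53.0%) and 97 of 714 in the last (13.6%), against 25.3% of the whole osteoblast list. The converse pairings were highest elsewhere in the file. Jun overlapped 59 of the 485 chondrocyte-only peaks in the first decile (12.2%), 170 of 973 in the fourth decile, from where it declined with each further decile to 7.58% in the last, against 17.8% of the whole chondrocyte list. Foxa2 overlapped 2 of the 292 osteoblast-only peaks in the first decile (0.685%) and 17 of 714 in the last (2.38%), against 4.93% of the whole osteoblast list. The whole lists include shared peaks. Among private peaks beyond 1 kb of the other list, Foxa2 overlapped 23.4% in chondrocytes and 1.79% in osteoblasts. Jun overlapped 11.1% and 18.1% of the same peaks. The decline was not particular to these pairings or to private peaks. Jun overlapped 372 of 733 shared osteoblast peaks in the first decile (50.8%) and 55 of 310 in the last (17.7%). The 3T3 Runx2 day 3 list overlapped 50.7% of chondrocyte-only peaks in the first decile and 31.4% in the last, and 68.8% and 32.5% of osteoblast-only peaks. The background list moved with the order at osteoblast-only peaks too: GFP day 0 overlapped 60 of 292 in the first decile (20.5%) and 0 of 714 in the last. At chondrocyte-only peaks it overlapped 5 of 485 (1.03%) and 11 of 1425 (0.772%). The part of background sites in the Jun gradient was not tested.

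Shared peaks of the osteoblast list went the other way for Foxa2, which overlapped 28 of 733 in the first decile (3.82%) and 51 of 310 in the last (16.5%). Seen from the chondrocyte file, Foxa2 overlapped 220 of 1054 shared peaks in the first decile (20.9%) and 7 of 114 in the last (6.14%). At shared sites Foxa2 was thus more frequent early in the chondrocyte file and late in the osteoblast file.

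**Figure D1:**
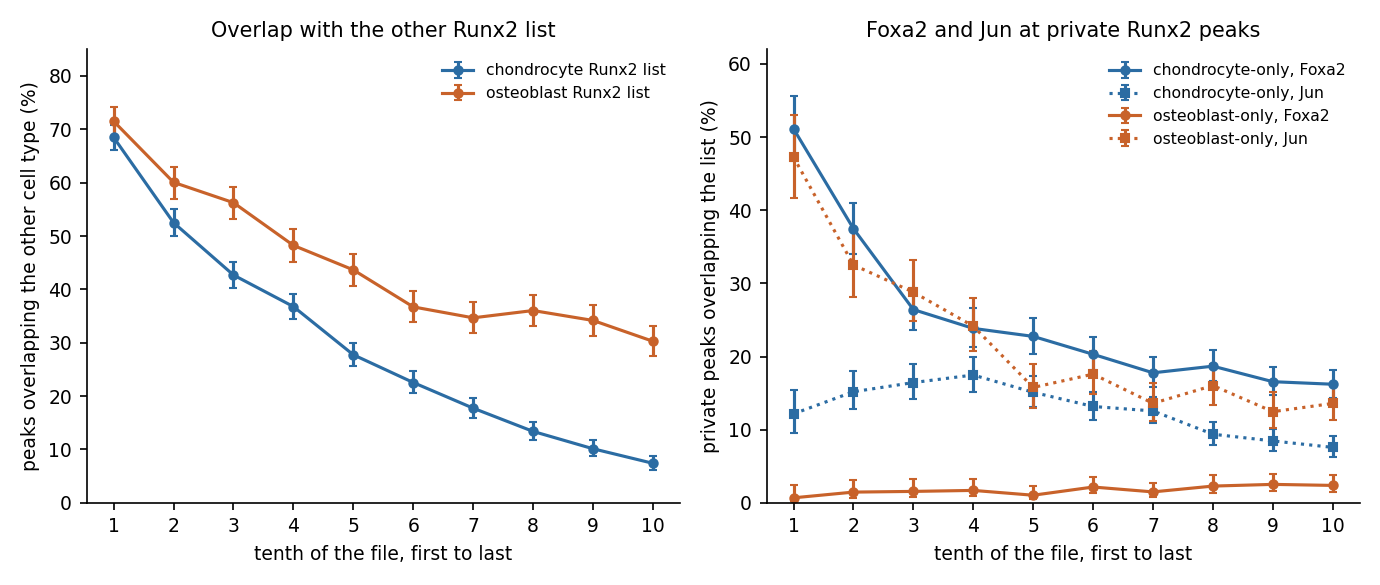
Left, the share of Runx2 peaks (%) that overlap the Runx2 list of the other cell type, by decile of each file (10 equal parts, first to last line); right, the share of private Runx2 peaks (%) that overlap the chondrocyte Foxa2 or osteoblast Jun list, with 95% Wilson intervals as bars. Foxa2 at chondrocyte-only peaks starts at 51.1% and ends at 16.2%, Jun at osteoblast-only peaks starts at 47.3% and ends at 13.6%, and Foxa2 at osteoblast-only peaks stays under 3%.

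Private chondrocyte peaks lay farther from the other cell type than private osteoblast peaks. The edge-to-edge distance to the nearest peak of the other list had a median of 47.5 kb for chondrocyte-only peaks (45.9 to 49.3 kb) and 23.4 kb for osteoblast-only peaks (22.2 to 24.6 kb). The order held on 20 of 20 chromosomes with the lists as deposited and on 18 of 20 at equal length. Part of the gap followed list length. Against a chondrocyte list cut to its first 10241 lines, the medians were 46.1 kb for chondrocyte-only and 34.5 kb for osteoblast-only peaks. With 10241 evenly spaced lines, a choice made after seeing the data, they were 47.8 kb and 37.0 kb. Private peaks were called anew against each cut list, so some peaks shared in the full lists counted as private there. Osteoblast-only peaks numbered 6175 with the first lines and 7176 with evenly spaced lines, against 5616 as deposited. To the nearest peak of their own list, chondrocyte-only peaks had a median of 21.1 kb (20.2 to 22.0 kb) and osteoblast-only peaks 20.8 kb (19.5 to 22.3 kb).

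**Figure D2:**
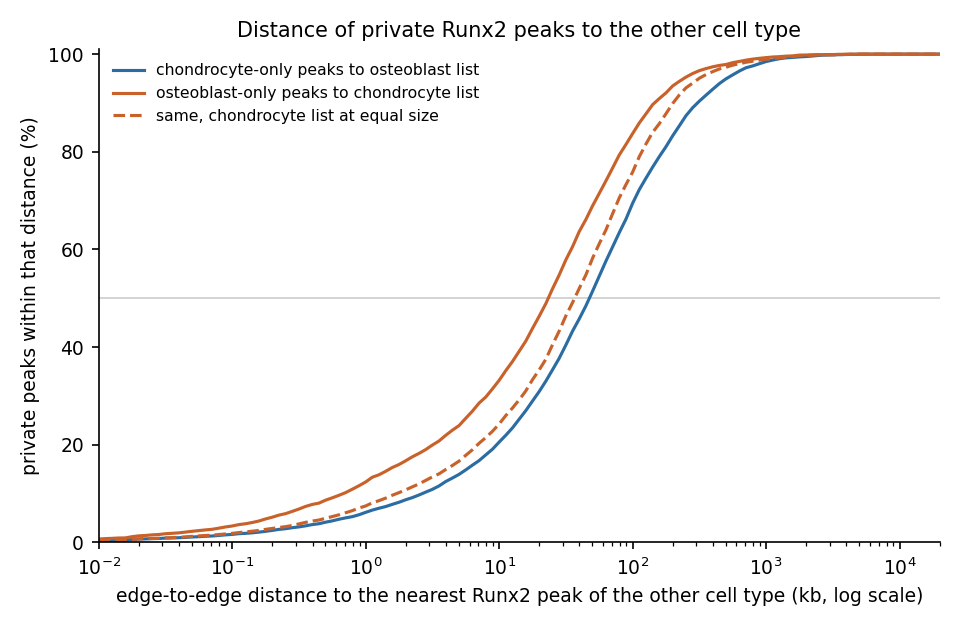
Cumulative share of private Runx2 peaks (%) by edge-to-edge distance to the nearest Runx2 peak of the other cell type (kb, log axis). The dashed line shows osteoblast peaks that are private against 10241 evenly spaced lines of the chondrocyte list. It covers 7176 peaks, against 5616 for the full osteoblast-only curve. The chondrocyte-only curve crosses 50% at 47.5 kb, the osteoblast-only curve at 23.4 kb and the dashed curve at 37.0 kb.

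A minority of private peaks were near misses. Within 1 kb of the other list lay 664 chondrocyte-only peaks (6.16%, 5.72 to 6.63%) and 695 osteoblast-only peaks (12.4%, 11.5 to 13.3%). Their nearest neighbour in the other list was itself a shared peak in 215 chondrocyte cases (32.4%) and 245 osteoblast cases (35.3%), and private in the rest. Shared peaks made up 45.2% of the osteoblast list and 29.9% of the chondrocyte list. The share for chondrocyte near misses was therefore below that of the list searched, and the share for osteoblast near misses above it. Within 10 kb lay 20.5% of chondrocyte-only peaks and 33.2% of osteoblast-only peaks. Most of this excess followed list length, with private peaks called anew against each cut list. With evenly spaced chondrocyte lines, 6.16% of chondrocyte-only and 7.47% of osteoblast-only peaks (6.88 to 8.10%) lay within 1 kb, and 20.3% and 24.2% within 10 kb. With the first lines these shares were 7.09% and 9.65% within 1 kb, and 21.2% and 26.8% within 10 kb. At the other end, 3294 chondrocyte-only peaks (30.6%, 29.7 to 31.4%) and 914 osteoblast-only peaks (16.3%, 15.3 to 17.3%) had no peak of the other cell type within 100 kb. More than 1 Mb separated 164 chondrocyte-only (1.52%) and 40 osteoblast-only peaks (0.712%) from the other list. At equal length the shares beyond 100 kb were 30.8% and 24.2% with evenly spaced lines, and 29.9% and 24.6% with the first lines. Beyond 1 Mb they were 1.49% and 1.03% with evenly spaced lines.

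The 3 most isolated private peaks of each list had few overlaps with the other lists. The chondrocyte-only peak at chrX:119510787-119510911 lay 10.9 Mb from any osteoblast peak, that at chr18:90680153-90680365 lay 5.66 Mb away, and that at chr1:113760701-113760819 lay 5.23 Mb away. Only the last of them overlapped another list, the one named for 3T3 Runx2 day 0. Among osteoblast-only peaks, chrX:55291647-55291967 lay 4.70 Mb from any chondrocyte peak, chr15:21286083-21286328 lay 4.09 Mb away and chrX:54039628-54039803 lay 3.45 Mb away. None of these 3 overlapped another list. They stood at lines 4913, 9002 and 8912 of the osteoblast file, and the chondrocyte peaks at lines 6339, 12686 and 11770 of theirs. Among all private peaks beyond 100 kb, 41.3% in chondrocytes and 32.5% in osteoblasts overlapped 3T3 Runx2 day 3 or the list named for day 0. This was below the 80.4% and 80.7% of shared peaks. It was also below the whole lists, of which 52.7% and 58.5% overlapped 3T3 Runx2 day 3 alone. The widest chondrocyte peak, 1.34 Mb from the osteoblast list, overlapped both of these lists, Foxa2 and Jun.

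Chondrocyte near misses resembled shared sites in their overlap with Foxa2 and Jun, and more distant chondrocyte-only peaks did not. Foxa2 overlapped 46 of 664 chondrocyte-only peaks within 1 kb of the osteoblast list (6.93%, 5.23 to 9.12%). This was close to the 8.72% of shared chondrocyte peaks and below the 21.9% at 1 to 10 kb, 23.3% at 10 to 100 kb and 24.3% beyond 100 kb. Jun showed the mirror pattern on the same peaks, with 29.2% (25.9 to 32.8%) within 1 kb, 13.0% at 1 to 10 kb, 11.5% at 10 to 100 kb and 9.56% beyond 100 kb, against 30.9% of shared peaks. The step at 1 kb was therefore larger than the whole change from 1 kb outwards.

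Osteoblast-only peaks had a smaller step of this kind for Jun. It overlapped 218 of 695 within 1 kb of the chondrocyte list (31.4%, 28.0 to 34.9%), 20.6% at 1 to 10 kb, 18.4% at 10 to 100 kb and 14.1% beyond 100 kb, against 32.1% of shared osteoblast peaks. Foxa2 overlapped 15 of those 695 (2.16%, 1.31 to 3.53%), against 8.69% of shared osteoblast peaks. In that respect the osteoblast near misses stood with the other osteoblast-only peaks (2.99%, 1.41% and 1.42% in the farther classes) and not with shared sites.

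Overlap with the 3T3 Runx2 day 3 list declined with distance in both lists. There, near misses stood closer to private peaks beyond 1 kb (42.7% in chondrocytes, 43.3% in osteoblasts) than to shared sites. The 3T3 Runx2 day 3 list overlapped 74.1% of shared chondrocyte peaks, 56.0% of chondrocyte-only peaks within 1 kb, 49.6% at 1 to 10 kb, 44.2% at 10 to 100 kb and 36.9% beyond 100 kb, against 52.7% of the whole list. In osteoblasts the same shares were 75.1%, 55.5%, 50.1%, 45.0% and 29.0%, against 58.5% of the whole list. The place of near misses differed in the list named for 3T3 Runx2 day 0. Chondrocyte near misses there (56.5%) stood closer to shared peaks (72.1%) than to private peaks beyond 1 kb (36.9%). Osteoblast near misses (49.8%) stayed closer to private peaks beyond 1 kb (35.8%) than to shared peaks (72.3%). Private sites far from the other primary cell type were thus also less often occupied in the fibroblast line, to a similar degree in both cell types up to 100 kb.

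Other properties moved with the distance classes. GFP day 0 overlapped 5.62% of shared and 4.67% of near-miss chondrocyte peaks, and between 1.40% and 1.61% of the farther ones. In osteoblasts it overlapped 6.49% of shared and 7.34% of near-miss peaks, and 2.57%, 2.36% and 1.97% of the farther ones. The list named for GFP day 3 overlapped 22.9% of shared and 22.3% of near-miss chondrocyte peaks, and 7.03%, 9.25% and 9.05% of the farther ones. For osteoblast peaks these shares were 25.1% and 29.9%, and 14.6%, 15.0% and 10.3%. The median place in the chondrocyte file was 26.4% of its length for shared peaks, 49.6% for near misses and between 59.9% and 61.6% for the farther classes. In the osteoblast file these places were 38.0%, 51.8% and between 58.2% and 61.6%. The part of file position and background in the step at 1 kb was not tested.

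**Figure D3:**
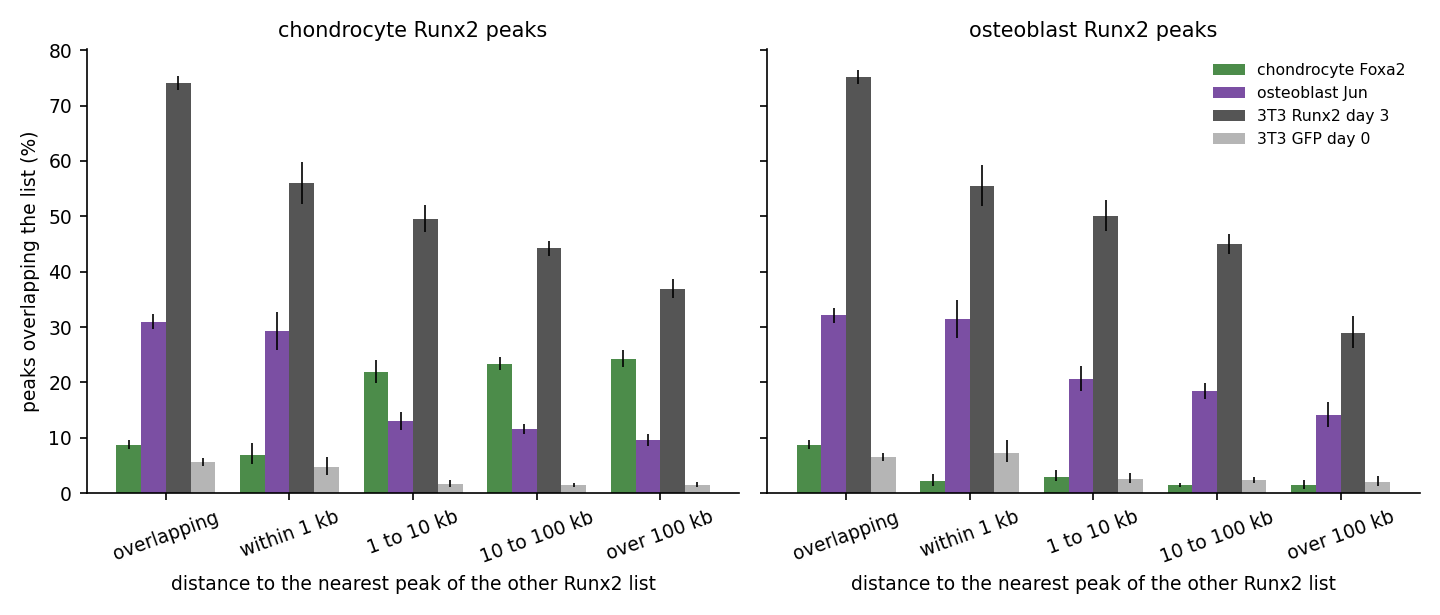
Share of chondrocyte (left) and osteoblast (right) Runx2 peaks (%) that overlap 4 other lists, by distance to the nearest Runx2 peak of the other cell type, with 95% Wilson intervals as bars. In the left panel Foxa2 steps up and Jun steps down between the class within 1 kb (6.93% and 29.2%) and the class at 1 to 10 kb (21.9% and 13.0%).

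Peaks of both lists were clustered to a like degree as deposited. Another peak of the same list lay within 12500 bp of 38.9% of chondrocyte peaks (38.1 to 39.7%) and of 38.1% of osteoblast peaks (37.2 to 39.1%). At equal list length the order turned: the chondrocyte share was 28.2% in its first 10241 lines and 29.1% in evenly spaced lines, against the same 38.1% in osteoblasts. For their number, osteoblast peaks were thus the more clustered. In osteoblasts private peaks had a close neighbour more often than shared peaks did, 40.8% (39.6 to 42.1%) against 34.8% (33.5 to 36.2%). In chondrocytes the classes did not differ beyond counting error at this distance, 39.0% for private peaks and 38.7% for shared peaks. Within 1 kb the private share was the higher, 10.2% (9.64 to 10.8%) against 8.25% (7.49 to 9.08%). Within 50 kb it was the lower, 70.7% (69.9 to 71.6%) against 72.3% (71.0 to 73.6%). Each list also had peaks that overlapped another peak of the same list, 122 in chondrocytes (0.793%) and 151 in osteoblasts (1.47%).

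Shared peaks had shared neighbours more often than private peaks did. Where a shared chondrocyte peak had a neighbour of its own list within 12500 bp, the nearest one was shared in 722 of 1782 cases (40.5%, 38.3 to 42.8%). For private chondrocyte peaks it was shared in 1055 of 4203 (25.1%, 23.8 to 26.4%). In osteoblasts the nearest neighbour was shared for 756 of 1611 shared peaks (46.9%, 44.5 to 49.4%) and for 825 of 2293 private peaks (36.0%, 34.0 to 38.0%). The gap between classes was 15.4 percentage points in chondrocytes and 10.9 in osteoblasts. Over the whole lists, 29.9% of chondrocyte and 45.2% of osteoblast peaks were shared. Among peaks with a neighbour within 12500 bp, 1782 of 5985 were shared in chondrocytes and 1611 of 3904 in osteoblasts. For osteoblasts this is a lower share than in the whole list. Neighbours of shared peaks exceeded both references in chondrocytes. In osteoblasts they were near the list share but above the share among peaks with a close neighbour. Neighbours of private peaks were below both references in both cell types.

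Long stretches of the genome held private peaks of 1 cell type in a row. A run here is a series of consecutive peaks of 1 list that are all private. The longest chondrocyte runs had 20 peaks, and 3 runs reached that length. The one at chr11:99091551-100470955 (1.38 Mb) had 12 of its 20 peaks in the 3T3 Runx2 day 3 list, 2 in Foxa2, 3 in Jun and 4 in GFP day 0, which overlapped 2.86% of the whole chondrocyte list. The one at chr2:76244519-78412958 (2.17 Mb) had 8 in Foxa2, 2 each in 3T3 Runx2 day 3 and Jun and none in GFP day 0. Over the whole chondrocyte list the shares were 18.3% for Foxa2, 17.8% for Jun and 52.7% for 3T3 Runx2 day 3. The longest osteoblast run had 14 peaks over 1.03 Mb at chr8:105306112-106338335, of which 3 overlapped Jun and none overlapped Foxa2, 3T3 Runx2 day 3 or GFP day 0. Over the whole osteoblast list the shares were 25.3% for Jun, 4.93% for Foxa2, 58.5% for 3T3 Runx2 day 3 and 4.55% for GFP day 0. The next, at chr10:70465723-70688887, was chosen for mention after its values were seen. It packed 11 peaks into 0.223 Mb, with 6 in 3T3 Runx2 day 3 and 2 in Jun. The whole lists include shared peaks, which these runs do not. Among private peaks beyond 1 kb of the other list, 3T3 Runx2 day 3 overlapped 42.7% in chondrocytes and 43.3% in osteoblasts. Foxa2 overlapped 23.4% and 1.79% of these peaks, and Jun 11.1% and 18.1%. The mean run was 2.33 peaks in chondrocytes and 1.55 in osteoblasts, and longer runs go with the lower share of shared peaks in the chondrocyte list.

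The densest groups of sites mostly held peaks of both cell types, as a count over more sites makes likelier. Peaks of both lists were merged into sites and chained where the gap was at most 12500 bp, which gave 14736 runs, of which 10893 were a single site. A chain of at least 5 sites was called a dense domain, and there were 249, with a median length of 20.6 kb and at most 14 sites. Both cell types had peaks in 236 of them (94.8%), against 76.1% of the 1037 runs of 3 to 4 sites and 58.7% of the 2557 runs of 2 sites. A shared peak lay in 197 of the dense domains (79.1%). Chondrocyte peaks were the more numerous in 141 domains, osteoblast peaks in 73, and the numbers were equal in 35. Of all peaks in dense domains, 56.1% were from chondrocytes, against 60.0% over the whole lists.

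Domains with 1 cell type only were few, and their balance depended on list length and on the gap allowed. Chondrocyte peaks alone made up 10 domains (4.02%, 2.20 to 7.23%) and osteoblast peaks alone 3 (1.20%, 0.411 to 3.48%). With the first 10241 chondrocyte lines the shares were 0% and 2.29%, and with evenly spaced lines 1.23% and 4.91%, so the order turned. It also turned at full length with a gap of 5 kb, where the shares were 2.99% and 4.48%. Of the chondrocyte-only domains, chr6:52151570-52171864 held 6 peaks with 8 Foxa2 peaks and 1 Jun peak, and chr6:137502611-137531345 held 6 with 3 Foxa2 and 2 Jun peaks. Both were chosen for mention after their values were seen.

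Domains led by one cell type differed in the other factors they held. The 141 domains with more chondrocyte peaks had a mean of 1.82 Foxa2 peaks and 2.04 Jun peaks, and 77.3% of them held a Foxa2 peak. The 73 with more osteoblast peaks had a mean of 0.822 Foxa2 peaks and 3.05 Jun peaks, and 52.1% of them held a Foxa2 peak. A Jun peak lay in 74.5% of the chondrocyte-led and 86.3% of the osteoblast-led domains, and a GFP day 0 peak in 19.1% and 26.0%. The 35 domains with equal numbers had a mean of 0.914 Foxa2 and 2.26 Jun peaks, and 57.1% of them held a Foxa2 peak. The 3T3 Runx2 day 3 list reached 97.9% of the chondrocyte-led and 97.3% of the osteoblast-led domains.

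The domain with the largest chondrocyte lead, chr2:32720382-32776993, was also the longest, at 56.6 kb. It held 14 chondrocyte and 3 osteoblast peaks, and every osteoblast peak there was shared. A second, chr15:97824407-97864660, held 10 chondrocyte and 3 osteoblast peaks, with 1 shared site, 11 Foxa2 peaks, 11 peaks of 3T3 Runx2 day 3 and no Jun peak. The third place was a tie of 4 domains with a lead of 6. The one taken by the order of position, chr17:27671829-27702951, held 10 chondrocyte and 4 osteoblast peaks, all 4 of them shared. In the first and the last of these domains the osteoblast list held no site of its own.

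Osteoblast leads were smaller in number of peaks. At chr11:98786905-98828380 there were 2 chondrocyte and 9 osteoblast peaks, with 1 shared site and 5 Jun peaks. At chr11:94775139-94797847 there were 1 chondrocyte and 7 osteoblast peaks with no shared site, and 10 Jun peaks within 22.7 kb. At chr15:102181198-102212182 there were 1 chondrocyte and 7 osteoblast peaks, and the chondrocyte peak was shared.

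Some domains held many peaks of both cell types, and only part of these peaks were shared. The largest smaller count of the 2 lists was 6, which 5 domains reached. Of these, chr10:76086190-76116191, chr2:167391418-167423353 and chr7:148633433-148666922 each held 6 chondrocyte and 6 osteoblast peaks. Over the whole lists, 29.9% of chondrocyte and 45.2% of osteoblast peaks were shared. In these 3 domains the shared peaks numbered 4, 3 and 5 of the 6 in each list. The rest of the sites were private to one or the other cell type, within domains of 30.0, 31.9 and 33.5 kb.

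The osteoblast-only domains, picked out after their values were seen, were of different kinds. At chr11:94733983-94744373, 5 osteoblast peaks stood with 5 Jun peaks and 4 peaks of 3T3 Runx2 day 3. At chr11:59107485-59127093, 5 stood with 4 Jun peaks and 4 of 3T3 Runx2 day 3. At chr9:91245778-91260549, 5 osteoblast peaks lay within 14.8 kb and none of the other 7 lists had a peak there.

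**Figure D4:**
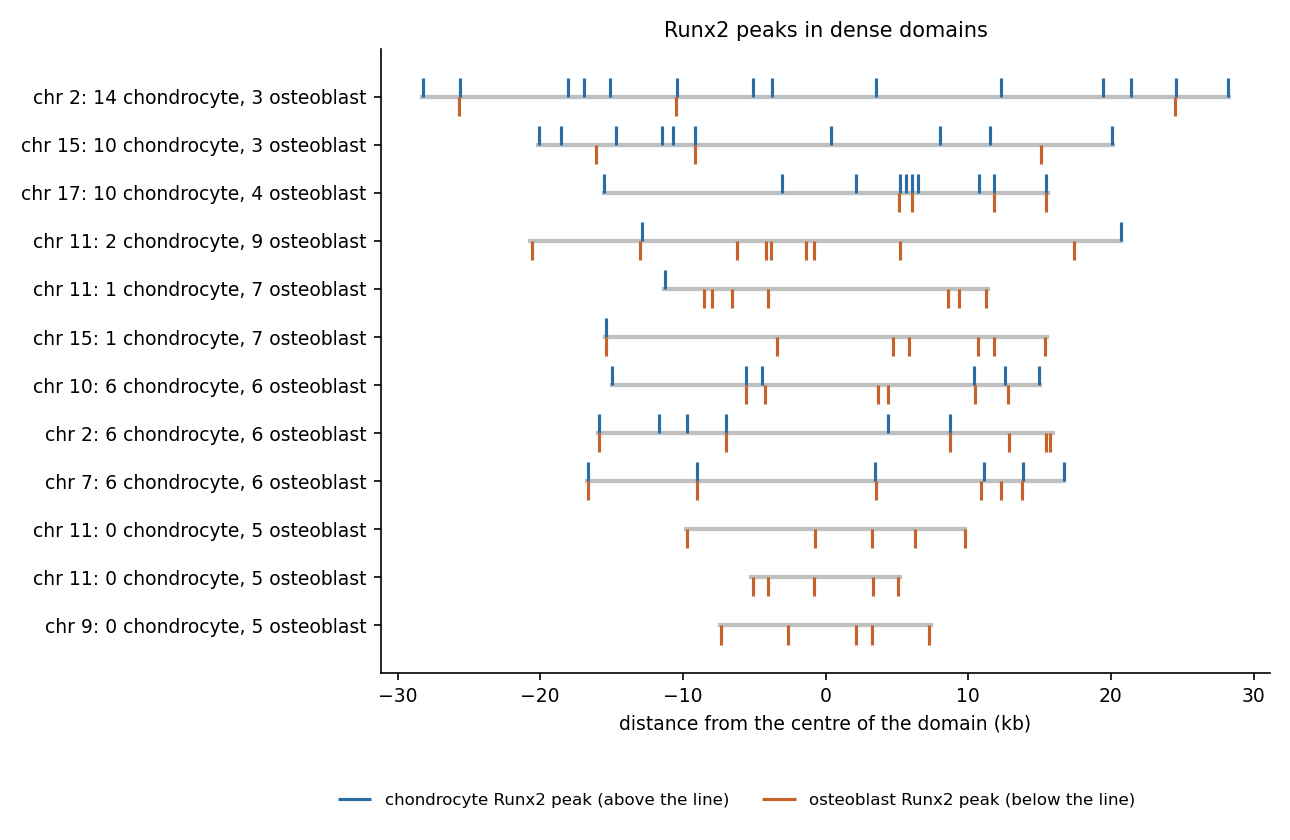
Positions of Runx2 peaks in 12 dense domains, by distance from the domain centre (kb); ticks above each line are chondrocyte peaks and ticks below it osteoblast peaks, and the labels give the number of each. The chondrocyte-led domain at the top has 14 ticks above and 3 below, and the 3 rows at the bottom have ticks below the line only.

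The cell types filled the same chromosomes in nearly the same proportion. The chondrocyte share of the peaks of both lists was 60.0% (59.4 to 60.6%) overall and ran from 57.2% on chromosome 11 (55.0 to 59.3%) to 66.6% on chromosome 19 (63.2 to 69.9%). Chromosome X followed with 65.4% (59.3 to 71.1%), from 161 chondrocyte and 85 osteoblast peaks. Neither list had a peak on chromosome Y. 

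Chromosome 19 stood out through the osteoblast list. It held 511 chondrocyte peaks (3.32% of the list, 3.05 to 3.62%) and 256 osteoblast peaks (2.50%, 2.21 to 2.82%), and 2.50% was the lowest value among the 8 lists, whose highest was 4.65% in GFP day 0. The osteoblast peaks on chromosome 19 were the most often shared of any chromosome, 142 of 256 (55.5%, 49.3 to 61.4%). In the chondrocyte list 139 of 511 were shared (27.2%). On chromosome 11, osteoblast peaks made up 8.29% of their list and chondrocyte peaks 7.37% of theirs. Leaving out chromosome 19 gave an overall chondrocyte share of 59.8%.

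**Figure D5:**
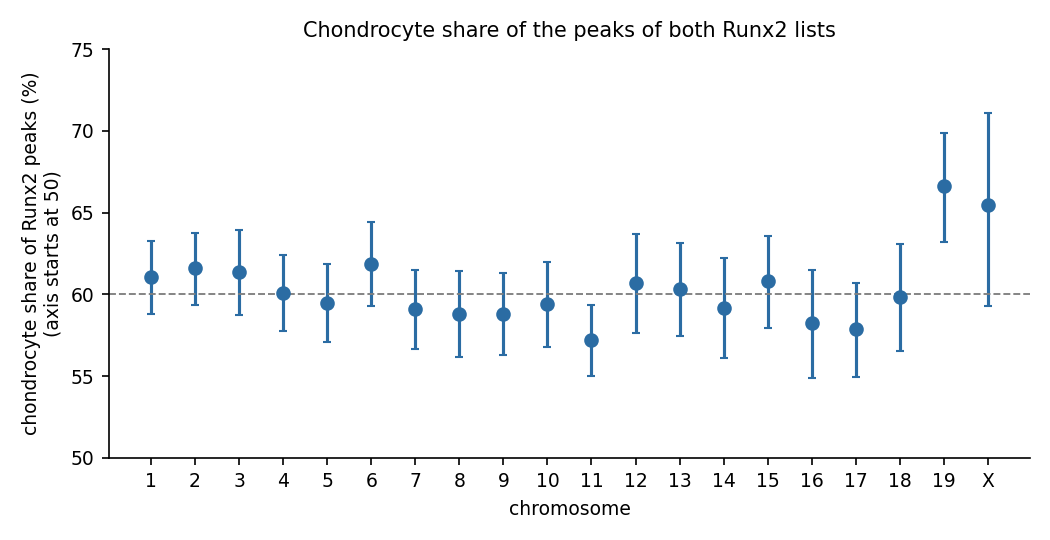
Chondrocyte share (%) of the Runx2 peaks of both lists on each chromosome, with 95% Wilson intervals; the dashed line is the 60.0% over all chromosomes, and the vertical axis starts at 50%. Chromosome 19 (66.6%) lies above the line with its whole interval and chromosome 11 (57.2%) lies below it with its whole interval.

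At the scale of 1 Mb the lists had similar densities. Over 2335 windows with a peak in any of the 8 lists, the counts had a Pearson's r of 0.795 and a Spearman's rho of 0.824, as a description, since both lists share the base composition and mappability of a window. Both cell types had peaks in 1714 windows, chondrocytes alone in 244, osteoblasts alone in 77 and neither in 300. Among the 721 windows with at least 15 peaks, chondrocyte peaks, the longer list, were the more numerous in 557 and osteoblast peaks in 126.

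A few windows departed far from this balance; they were picked after their values were seen. The window chr6:144000001-145000000 held 26 chondrocyte and 2 osteoblast peaks, and chr6:52000001-53000000 held 22 and 3. On chromosome 3, the windows starting at 60000001 and 79000001 each held 15 chondrocyte peaks and 1 osteoblast peak. The opposite extreme was chr12:34000001-35000000, with 3 chondrocyte and 12 osteoblast peaks, followed by chr10:70000001-71000000 with 4 and 14. The window chr11:94000001-95000000 held 11 chondrocyte and 27 osteoblast peaks. That window contains an osteoblast-led and an osteoblast-only dense domain described above.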

How the data were processed

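The authors deposited 1 list of peak coordinates per ChIP group, with chromosome, start and end in 3 columns and no score. Per the submitters' processing notes, the build was mm9 and the tools included Bowtie and DiffBind, with no roles stated. The caller, threshold, controls, versions and pooling of the 2 libraries of each cell type are not given in the sources used here. Groups followed the labels. The lists named for 3T3 Runx2 day 0 and GFP day 3 have crossed labels and are given by name only.

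Peaks sharing at least 1 bp were called shared, distances were edge to edge, and overlaps were checked against bedtools 2.31.1 (0 differing). Distance and domain steps were tested on simulated data. File deciles follow line order. Regions named are the 3 domains with the largest lead of each cell type, the 3 with the largest smaller count of the 2 lists (ties by chromosome name, then start), the 3 farthest private peaks, the first 3 lines, the widest peak and the longest private run of each list; others are marked. The members and lists were chosen with earlier results of these data known. No gene names, motifs or sequences are given, since no mm9 genome or annotation was used here. Input, IgG and ATAC-seq libraries were not analysed here. Python 3.11.15, NumPy 2.4.6, pandas 2.3.3, SciPy 1.17.1 and matplotlib 3.10.9 were used.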

Additional observations from a re-analysis of the deposited data

How the results depend on the processing

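No paired analysis was possible because each cell type had 1 list, so no replicate could be left out or blocked. Of 58 values under other settings, 18 stayed within the interval of the value reported and 40 moved. Shares of shared peaks were, in chondrocytes and osteoblasts, 27.6% and 41.6% where 50% of the shorter peak had to overlap, 34.3% and 51.9% for edges within 1 kb, 39.5% and 39.7% with the first 10241 chondrocyte lines, 31.5% and 47.3% in the first 50% of each file, 13.8% and 20.9% in the wider 50%, and 28.7% and 44.1% without GFP day 0 peaks. These 50% settings cut both lists, so each peak had fewer possible partners, for shares and distances alike. Against the whole other list, the 2 wider quartiles had 27.9% and 25.6% shared in chondrocytes, and 41.7% and 42.0% in osteoblasts. With evenly spaced lines, chosen after seeing the data, the osteoblast share was 29.9%. Median distances of chondrocyte-only and osteoblast-only peaks were 86.2 kb and 45.2 kb in the first 50%, 93.4 kb and 52.9 kb in the wider 50%, and the chondrocyte-only median was 49.9 kb without GFP day 0 peaks. At equal size, with private peaks called anew, the osteoblast-only median was 34.5 kb (first lines) or 37.0 kb (evenly spaced). In all of these the chondrocyte-only distance remained the larger.

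The chondrocyte share with a close neighbour was 28.2% and 29.1% at equal size. At 5 kb the shares in chondrocytes and osteoblasts were 24.5% and 25.8%, and at 50 kb 71.2% and 66.0%, so their order turned at 5 kb. Dense domains of chondrocyte peaks only were 0% (first lines) and 1.23% (evenly spaced) at equal size and 0% of domains with at least 8 sites. Those of osteoblast peaks only were 4.91% at equal size (evenly spaced), 4.48% with a gap of 5 kb (where chondrocyte-only domains were 2.99%, so the order turned) and 0% with at least 8 sites. The width difference, shared minus private, was -18 bp in osteoblasts when classes were made from 200 bp around the centres. In the wider 50% of both lists, the first decile of the file exceeded the last in sharing by 22.3 percentage points in chondrocytes and 17.0 in osteoblasts.

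Foxa2 at chondrocyte-only peaks, near minus far from osteoblast peaks, was -6.33 percentage points with near as 10 kb, -3.21 with 50 kb, -16.5 with 1 kb (added after seeing the data) and -8.25 in the first 50% of the file. Jun at osteoblast-only peaks was 7.27, 6.59, 13.2 and 10.0 in the same settings. Depth and peak height were not given, so no limit from depth can be stated.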
